A study of Mus musculus with 12 samples.

Results

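The 10 genes described here encode the mechanotransduction machinery of the hair bundle and its tip link: *Tmc1*, *Tmc2*, *Lhfpl5*, *Tmie*, *Cib2*, *Pcdh15*, *Cdh23*, *Myo7a*, *Ush1c* and *Ush1g*. They were picked by gene name from the annotation printed in the array files, with earlier results of these data known. The study had already reported *Tmc1*, *Lhfpl5*, *Pcdh15* and *Ush1c* as changed 2-fold or more in these data. Its quantitative RT-PCR also had all of these higher in the apex than at the base, *Ush1c* by less than 2-fold. In that measurement *Tmc1* was nearly the same in apex and middle turn. All 10 genes were on the array, with 221 of its 165865 probes and 10 of its 19505 genes. Their expression was compared along the tonotopic axis of the mouse cochlea, with 4 arrays for the apex, 4 for the middle turn and 4 for the base. All samples came from male C57BL/6 mice aged 6 weeks, 4 mice in all with no treatment or engineered allele named, and each array received RNA amplified and labeled with Cy3 from 25 ng of total RNA. A sample was a whole turn, in which the organ of Corti lay together with the lateral wall and, according to the methods, the spiral ganglion. C57BL/6 mice carry a splice-altering allele of *Cdh23* known for age-related hearing loss, and no other strain was on the arrays.

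Hair cells turn the deflection of their stereocilia into a current. A tip link, made of cadherin 23 above and protocadherin 15 below, pulls on a channel at the tip of the shorter stereocilium, where TMC1 or TMC2 forms the pore together with LHFPL5, TMIE and CIB2. At the upper end, cadherin 23 is held to the actin core by the motor myosin VIIA and the scaffold proteins harmonin, from *Ush1c*, and SANS, from *Ush1g*. Mutations in most of these genes cause deafness, alone or with blindness as Usher syndrome type 1, and *Tmc2* in the cochlea is known as the early form that *Tmc1* replaces as the bundle matures.

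Values are scaled fluorescence, in which every array was brought to the same 75th percentile. The signal of a gene is the mean log2 signal of its exon probes, written on the linear scale, and a log2 difference of 1 is 2-fold. A gene or probe was called when limma's moderated test gave a Benjamini-Hochberg adjusted p under 0.05 over all genes or all probes. Before scaling, the 75th percentile ran from 534.0 to 722, the scanner software flagged 77.4% to 81.4% of spots as well above background, and no spot was saturated. That share was 80.1% to 81.2% on apical, 77.4% to 81.4% on middle and 78.3% to 79.1% on basal arrays, so every apical array lay above every basal array. The 4 arrays of a turn shared 1 slide, so turn and slide cannot be told apart. Probe brightness also depends on sequence, so signals were compared between turns and not between genes.

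Of the 10 genes, 8 were higher in the apex than at the base and 0 were lower, where 17.6% of all genes were higher and 21.6% lower. *Lhfpl5*, *Pcdh15*, *Tmc1* and *Ush1c* differed 2-fold or more with limma's F test passed, 4 of 10 against 3.27% of all genes. *Cib2* and *Myo7a* were higher by less than 2-fold, and so were *Cdh23* and *Tmie*, which both turned to lower in the apex, without a call, when the arrays were scaled to the spike-in probes. *Tmc2* and *Ush1g* did not pass, and with spike-in scaling both were called lower in the apex. The 4 apical arrays lay above all 4 basal arrays in 8 of 10 genes, against 16.9% of all genes. The median of the 10 log2 differences was 0.78, and that of all genes was -0.04. Scaling to the spike-in probes moved the median of all genes to -0.52 and the shares of all genes called to 3.97% higher and 73.5% lower, and median scaling gave 11.6% and 32.2%. Relative to the median gene, a difference that scaling by 1 factor per array leaves as it is, the 10 genes ran from -0.05 for *Ush1g* to 1.66 for *Lhfpl5*.

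**Figure D1:**
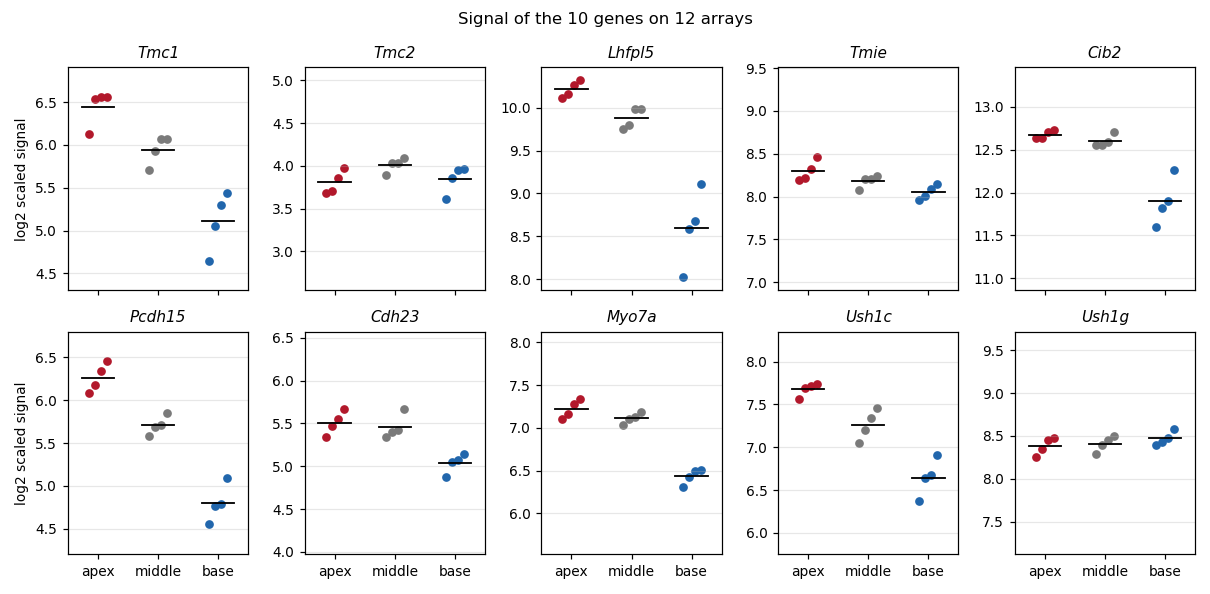
Log2 scaled signal (vertical axis) of each gene on the 4 arrays of each turn (points), with the turn mean as a line; every panel spans the same number of log2 units. Apical and basal arrays do not overlap for 8 of the 10 genes, and *Tmc2* and *Ush1g* overlap in all turns.

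Among the channel proteins, *Lhfpl5*, which links protocadherin 15 to the pore, had the largest difference of the 10. Its signal was 1280.1, 1233, 1145 and 1109.5 on the apical arrays, 1014, 864, 1014 and 889 on the middle arrays, and 409, 259.6, 554 and 383 on the basal arrays. No basal array reached the middle arrays, and basal replicate 2 was the lowest of the 12. The apex was 3.07-fold higher than the base (log2 difference 1.62, standard error 0.18, limma adjusted p = 5.56e-05). All 3 of its probes gave nearly the same difference, from 1.60 to 1.67 in log2 units. In bulk tissue of this kind, fewer hair cells in a sample and less RNA per hair cell cannot be told apart.

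*Tmc1*, the pore of mature hair cells, had a signal of 92.9, 94.2, 94.5 and 69.9 in the apex. The middle arrays gave 52.2, 67.0, 60.9 and 66.9, and the basal arrays 39.5, 25.1, 33.2 and 43.5. The 3 turns did not overlap and fell in order from apex to base. The apex exceeded the base 2.52-fold (log2 difference 1.33, standard error 0.17, limma adjusted p = 1.26e-04). Apical replicate 4 stood 0.944 of the apical range below the other 3 arrays. All 18 probes of *Tmc1* were well above background on the 4 apical arrays, 9 of them on the 4 basal arrays, and 17 of the 18 were called higher in the apex, against 18% of all probes. Where background was corrected by normexp with an offset of 50, which damps dim signals, the log2 difference of the gene was 0.53 with adjusted p = 2.70e-04 by limma.

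*Tmc2*, the pore protein known from immature cochlear hair cells, had a signal between 12.9 and 15.8 on the apical arrays, 14.8 and 17.0 on the middle arrays and 12.2 and 15.5 at the base. The turns overlapped, and apex and base differed by -0.04 log2 units (95% interval -0.24 to 0.16, limma adjusted p = 0.80). With spike-in scaling, *Tmc2* was called lower in the apex (-0.52, adjusted p = 4.17e-04 by limma). Only 3 of its 19 probes passed the background flag on all 4 arrays of any turn, so the gene mean rests mostly on probes near the background, and a difference in them was not detectable. Among the 3, probe 15 gave 939, 886, 1088 and 911 in the apex and 1174, 1059.8, 1064 and 1007 in the base, with overlap (log2 difference -0.17, standard error 0.088, limma adjusted p = 0.16). Probe 19, near the 3′ end, averaged 95.7 in the apex and 139 in the base, the reverse of the *Tmc1* order (log2 difference -0.53, standard error 0.14, limma adjusted p = 0.014). Probe 12 was also called lower in the apex, but was not well above background on any array of either turn.

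**Figure D2:**
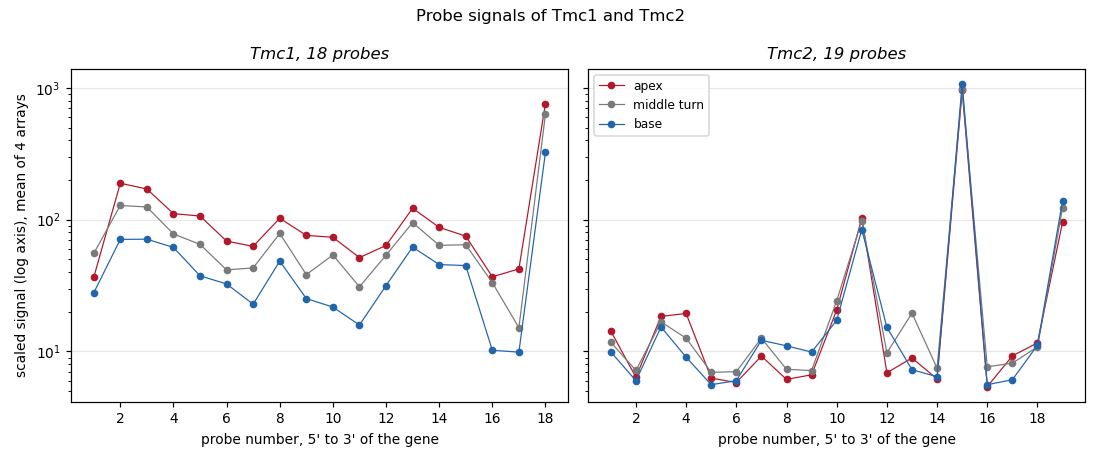
Mean scaled signal (log axis) of each probe over the 4 arrays of a turn, numbered from the 5′ to the 3′ end of *Tmc1* (left) and *Tmc2* (right). In *Tmc1* the apical mean lies above the basal mean at all 18 probes, while in *Tmc2* 3 of 19 probes rise above the background and the turns lie together at the brightest.

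*Cib2*, a calcium-binding partner of the TMC proteins, had 6693, 6781, 6349 and 6393 in the apex. It had 6700.2, 6003, 6187 and 6032 on the middle arrays and 3835, 3095, 4918 and 3624 at the base. Apex and middle turn overlapped, and both lay above every basal array. The difference between apex and base was 1.72-fold (log2 difference 0.78, standard error 0.11, limma adjusted p = 3.09e-04), with all 5 probes between 0.76 and 0.83. *Tmie*, a transmembrane protein of the channel, had 293, 319, 352 and 297 in the apex and 249, 284, 257 and 272 in the base. The middle arrays, from 271 to 303, overlapped both ends, while apex and base did not overlap. The apex was 1.19-fold higher (log2 difference 0.25, standard error 0.07, limma adjusted p = 0.016), though with quantile normalization and with median scaling *Tmie* was no longer called (limma adjusted p = 0.070 and 0.16), and with scaling to spike-in probes it was at -0.24 in log2 units (adjusted p = 0.075 by limma). *Tmie* has 4 probes, of which 2 were called higher in the apex, against 18% of all probes.

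The sequences of 3 probes show where the channel genes were read, as printed in the array files, 5′ to 3′, with positions on mouse build mm9: *Lhfpl5* for the gene with the largest difference, *Tmc1* for a probe in the ordered gene, and *Tmc2* for its bright probe.
*Lhfpl5* probe 1, chr17:28713298-28713357, plus strand: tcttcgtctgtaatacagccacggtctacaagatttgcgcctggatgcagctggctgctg
*Tmc1* probe 2, chr19:20981387-20981446, minus strand: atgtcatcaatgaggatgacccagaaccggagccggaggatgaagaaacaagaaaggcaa
*Tmc2* probe 15, chr2:130074485-130074544, plus strand: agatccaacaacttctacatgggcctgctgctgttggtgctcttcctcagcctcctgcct
The *Lhfpl5* probe gave 924, 950.0, 916 and 828 in the apex and 328, 188, 434 and 297 in the base (log2 difference 1.60, standard error 0.21, limma adjusted p = 2.58e-04). The *Tmc1* probe gave 212, 242, 161 and 141 in the apex and 77.3, 60.7, 57.9 and 87.7 in the base (log2 difference 1.40, standard error 0.18, limma adjusted p = 2.68e-04). Both probes separated the ends of the cochlea without overlap, and the *Tmc2* probe did not.

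Both tip link cadherins were called higher in the apex, but the *Cdh23* call was lost with spike-in scaling, with normexp and with linear averaging of the probes. *Pcdh15*, the lower part of the link, had 72.4, 81.0, 87.7 and 67.8 in the apex. The middle arrays had 52.5, 51.7, 57.9 and 48.0, and the basal arrays 27.3, 23.4, 27.7 and 34.1. The 3 turns did not overlap. The apex was 2.76-fold higher than the base (log2 difference 1.46, standard error 0.12, limma adjusted p = 5.71e-06), with a difference of 0.55 under the normexp correction (adjusted p = 9.85e-06 by limma). Of its 37 probes, 32 were called higher in the apex and 0 lower, against 18% and 16.4% of all probes. At 8 probes the base was not well above background on any array while the apex was on all 4, so that the basal level of these probes was not measured and the size of their difference is uncertain.

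*Cdh23*, the upper part of the link, had 44.3, 46.9, 51.1 and 40.7 in the apex. It had 42.9, 40.6, 51.0 and 42.2 on the middle arrays and 33.2, 29.3, 35.3 and 33.6 at the base. Apical and middle arrays overlapped, and all of them lay above the basal arrays. Apex and base differed 1.39-fold (log2 difference 0.48, standard error 0.092, limma adjusted p = 0.0018), with a 95% interval of 0.27 to 0.68 that did not reach the 1.21 to 1.72 of *Pcdh15*. Both gene means include dim probes. Not well above background on any basal array were 25 of 65 probes in *Cdh23* and 14 of 37 in *Pcdh15*, so the sizes of these differences are not strictly comparable. The *Cdh23* call was lost with normexp (log2 difference 0.13, adjusted p = 0.077 by limma) and with linear averaging of the probes (0.13, adjusted p = 0.095), and with spike-in scaling the difference was -0.01. Of the 65 *Cdh23* probes, 19 were called higher in the apex and 2 lower, where 18% and 16.4% of all probes were. Well above background were 36 on the 4 apical arrays and 26 on the 4 basal arrays.

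Single probes show how the cadherin genes varied along their length, the first with the largest difference in *Pcdh15*, the second with the highest signal there and a difference below the rest of the gene, and the third as a *Cdh23* probe higher in the base.
*Pcdh15* probe 19, chr10:73916787-73916846, plus strand: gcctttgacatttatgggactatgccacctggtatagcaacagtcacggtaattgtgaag
*Pcdh15* probe 28, chr10:74056934-74056993, plus strand: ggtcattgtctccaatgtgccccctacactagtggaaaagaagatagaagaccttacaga
*Cdh23* probe 16, chr10:59891057-59891116, minus strand: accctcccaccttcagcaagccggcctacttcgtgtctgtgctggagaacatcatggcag
Probe 19 of *Pcdh15* gave 74.7, 84.3, 65.5 and 45.4 in the apex and 7.51, 6.39, 7.11 and 22.9 at the base, where no array was well above background (log2 difference 2.81 with the dim values as given, standard error 0.46, limma adjusted p = 0.0011). Against the mean of the other *Pcdh15* probes of the same array it did not pass (limma adjusted p = 0.052). Probe 28 gave 550.4, 569, 493 and 535 in the apex and 485, 469.7, 430.0 and 457 in the base, without overlap but with a much smaller difference (log2 difference 0.22, standard error 0.064, limma adjusted p = 0.02). Against the other probes of its gene, probe 28 differed by -1.28 (standard error 0.14, limma adjusted p = 8.42e-04). The *Cdh23* probe had the opposite order, with 769, 681, 713 and 689.5 in the apex and 1018, 1015, 1080.4 and 977 in the base (log2 difference -0.52, standard error 0.074, limma adjusted p = 4.82e-04). Every basal array was above every apical array there, and the difference from the other *Cdh23* probes was -1.01 (standard error 0.12, limma adjusted p = 0.0013).

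*Pcdh15* probes fall under 6 transcripts in the annotation. Of the 24 probes filed under the transcript with most probes, 23 were called higher in the apex, with a median log2 difference of 1.83. All 6 probes of a second transcript were called, with a median of 1.18. Of the 4 probes of another, 1 was called and 3 never passed the background flag on all 4 arrays of any turn, as did the only probe of yet another. The 2 transcripts with 1 probe each that passed gave 1.99 and 1.24. Probes 32 and 33, next to each other near the 3′ end, averaged 6.26 and 6.34 in the apex and 5.97 and 6.47 in the base, so that no difference could be detected there, while probe 34 averaged 120.1 in the apex and 31.2 in the base.

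In the upper tip link complex, *Myo7a* and *Ush1c* were higher in the apex and *Ush1g* was not called. *Myo7a*, the motor myosin VIIA, had 143, 162, 156 and 137 in the apex. The middle turn had 137, 131, 145 and 140.1, and the base 86.3, 79.6, 90.4 and 91.2. Apex and middle turn overlapped, and the base lay below both. The apex was 1.72-fold higher than the base (log2 difference 0.78, standard error 0.067, limma adjusted p = 9.67e-06), and 0.38 in log2 units under normexp (adjusted p = 7.69e-05 by limma). *Ush1c*, which encodes the scaffold harmonin, had 213, 210.0, 206 and 189.8 in the apex. It had 133, 147, 163 and 176 on the middle arrays and 99.6, 82.6, 102 and 119.7 at the base. The 3 turns followed in order without overlap, and the apex was 2.04-fold higher than the base (log2 difference 1.03, standard error 0.11, limma adjusted p = 5.38e-05), with 0.60 under normexp (adjusted p = 9.98e-05 by limma).

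*Ush1g*, the gene of the scaffold SANS, had 352, 356, 305 and 325 in the apex. The middle arrays had 361, 337, 313 and 349, and the basal arrays 385, 338, 356 and 346. The turns overlapped, with the highest value in the base (log2 difference -0.09, standard error 0.068, limma adjusted p = 0.35, 95% interval -0.24 to 0.06). Its 3 probes disagreed. Probe 2 was called lower in the apex (log2 difference -0.35, standard error 0.07, limma adjusted p = 0.0034), while probe 1 was at 0.11 and probe 3 at -0.04 without a call. Taking the median of the probes in place of their mean made *Ush1g* lower in the apex (log2 difference -0.35, adjusted p = 0.0027 by limma), and it was also called lower with spike-in scaling (-0.58, adjusted p = 8.38e-05), with median scaling (-0.21, adjusted p = 0.035) and with the mean linear signal (-0.15, adjusted p = 0.024).

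Probes of the upper complex are shown for 4 cases, the *Myo7a* probe with the largest difference, the *Myo7a* probe higher in the base, the *Ush1c* probe above the rest of its gene, and the *Ush1g* probe higher in the base.
*Myo7a* probe 6, chr7:105245906-105245965, minus strand: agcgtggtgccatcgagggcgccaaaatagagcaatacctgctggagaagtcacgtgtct
*Myo7a* probe 34, chr7:105213244-105213303, minus strand: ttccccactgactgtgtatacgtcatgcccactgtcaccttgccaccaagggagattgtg
*Ush1c* probe 16, chr7:53460570-53460629, minus strand: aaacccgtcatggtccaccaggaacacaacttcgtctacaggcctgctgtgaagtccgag
*Ush1g* probe 2, chr11:115179417-115179476, minus strand: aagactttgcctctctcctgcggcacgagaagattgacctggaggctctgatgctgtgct
Probe 6 of *Myo7a* gave 40.8, 43.3, 51.0 and 43.0 in the apex and 13.7, 13.4, 17.8 and 12.6 in the base, where no array was well above background. It exceeded the other *Myo7a* probes by 0.88 (standard error 0.15, limma adjusted p = 0.0064), but under normexp the difference was -0.12, which turned the direction. Probe 34 gave 657, 718, 641 and 773 on the apical arrays, 719.8, 833, 823 and 910.0 on the middle arrays and 1269.8, 1235, 1056 and 1417 at the base. The base was above the apex on every array, 1.78-fold in the mean (log2 difference -0.83, standard error 0.1, limma adjusted p = 2.22e-04), and the difference from the rest of the gene was -1.65 (standard error 0.12, limma adjusted p = 7.89e-05). For *Ush1c*, probe 16 gave 252, 259, 272 and 165 in the apex and 65.8, 42.6, 56.2 and 64.5 in the base (log2 difference 2.04, standard error 0.21, limma adjusted p = 6.68e-05). It exceeded the other *Ush1c* probes by 1.07 (standard error 0.15, limma adjusted p = 0.0031). The *Ush1g* probe gave 472, 510.2, 501 and 501 in the apex and 651, 605, 626 and 641 in the base, with no overlap.

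Along *Myo7a*, 3 probes were called higher and 9 lower than the rest of the gene, against 4.06% and 6.38% of all probes so tested. Probes 6 to 11 were among them. Probes 6 and 7 had log2 differences of 1.64 and 1.60, and the next 4 probes had 0.32, -0.02, 0.19 and 0.11, each lower than the rest of the gene (adjusted p between 9.33e-04 and 0.014 by limma). Probes 28, 30, 31 and 34 were also lower than the rest, at -0.85, -0.46, -0.74 and -1.65. Probes 9, 28 and 31 averaged 739, 885 and 578 in the apex and 756, 919.9 and 558 in the base, and none of the 3 differences passed. Probe 44 was called lower than the rest at -0.24, and probes 6, 7 and 23 higher by 0.88, 0.84 and 0.54. In all, 38 of 47 *Myo7a* probes were called higher in the apex and 1 lower, against 18% and 16.4% of all probes.

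Along *Ush1c*, 14 probes are filed under one transcript and all 14 were called higher in the apex, between 0.43 and 1.33 in log2 units. Of 5 probes filed under a second transcript, which is longer, 3 were called, and their differences spread from 0.22 to 2.30. Probe 19 of this transcript averaged 45.7 in the apex, while no basal array was well above background. The 20 probes of *Ush1c* all had a positive difference, and 18 were called higher in the apex, against 18% of all probes.

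**Figure D3:**
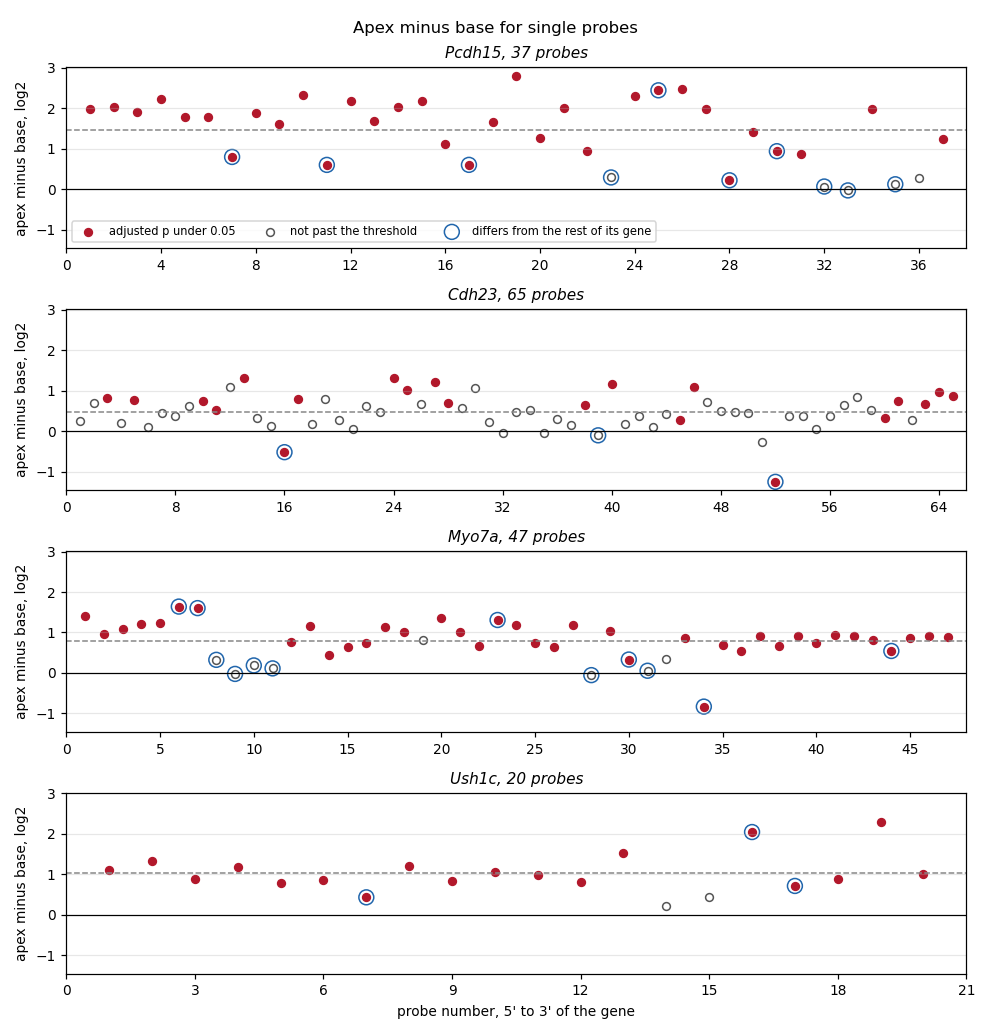
Log2 difference between apex and base (vertical axis) of each probe of *Pcdh15*, *Cdh23*, *Myo7a* and *Ush1c*, numbered from 5′ to 3′; filled points passed limma's test over all probes, rings mark probes that differed from the rest of their gene, and the dashed line is the mean of the gene. Most probes lie above 0 in all 4 genes, with the flat *Myo7a* probes 8 to 11 and the *Myo7a* and *Cdh23* probes below 0 set apart.

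Over the 10 genes, 134 of 221 probes (60.6%) were called higher in the apex, 6 lower and 81 neither, where 18% and 16.4% of all probes were called higher and lower. Against the mean of the other probes of the gene, 5 probes were called higher and 25 lower, where 4.06% and 6.38% of all probes so tested were. The number called higher was 27 under normexp. The share of all probes called under normexp was not determined, so this rise cannot be read as particular to the 10 genes. Between the mean signal of a probe and its difference, Spearman's rho was -0.55 over the 47 *Myo7a* probes, -0.46 over the 18 *Tmc1* probes, -0.40 over the 65 *Cdh23* probes, -0.29 over the 37 *Pcdh15* probes, -0.24 over the 20 *Ush1c* probes and 0.13 over the 19 *Tmc2* probes. The probes of a gene share the same 12 arrays and the same background subtraction, and differ in base composition, so these values are descriptions only.

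For the 8 genes called between the ends, the mean of the middle turn lay nearer to the apex than to the base, which passed a test in *Myo7a* alone. Between middle turn and base, 7 of 10 genes were called higher in the middle turn and 0 lower, against 11.6% and 9.23% of all genes, and *Lhfpl5* alone differed 2-fold or more (2.2% of all genes did, higher in the middle turn). The 7 were *Lhfpl5* at 1.28 (standard error 0.18, limma adjusted p = 8.76e-04), *Pcdh15* at 0.91 (standard error 0.12, limma adjusted p = 5.03e-04), *Tmc1* at 0.83, *Cib2* at 0.71, *Myo7a* at 0.67, *Ush1c* at 0.62 and *Cdh23* at 0.43. The *Cdh23* call was lost with spike-in scaling (0.15, adjusted p = 0.38 by limma) and with the mean linear signal (0.14, adjusted p = 0.088). Under normexp all 7 were called, with *Pcdh15* at 0.35, *Tmc1* at 0.35, *Myo7a* at 0.36, *Ush1c* at 0.37 and *Cdh23* at 0.19. Without basal replicate 4, *Pcdh15* also reached 2-fold there, at 1.01. Between apex and middle turn, *Pcdh15* at 0.55 (standard error 0.12, limma adjusted p = 0.014) and *Ush1c* at 0.41 (standard error 0.11, limma adjusted p = 0.039) were called higher in the apex, 2 of 10 genes against 4.42% of all genes, and 0 were lower, against 7.61%. The arrays of apex and middle turn did not overlap for 4 genes, *Tmc1*, *Lhfpl5*, *Pcdh15* and *Ush1c*, against 7.3% of all genes. With spike-in scaling neither was called (*Pcdh15* at 0.34 and *Ush1c* at 0.20, adjusted p = 0.079 and 0.22 by limma). The *Ush1c* call was also lost in 7 of the 12 fits without 1 array (without apical replicate 1, 2 or 3, middle replicate 1 or 2, or basal replicate 1 or 3), with adjusted p between 0.025 and 0.10 by limma. *Tmc1*, at 0.50 (standard error 0.17, limma adjusted p = 0.072), passed without apical replicate 4 (0.61, adjusted p = 0.043) or basal replicate 2 (0.50, adjusted p = 0.035).

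For the 8 genes called between the ends, the middle turn lay between 54.2% of the way from base to apex, in *Tmie*, and 90.5%, in *Cib2*, on the log2 scale. *Cdh23* (89.3%), *Myo7a* (86.4%) and *Lhfpl5* (79.3%) were near the apical end, and *Tmc1* (62.2%), *Pcdh15* (62.2%) and *Ush1c* (60.1%) nearer the midpoint. *Myo7a* alone was called off the midpoint of apex and base, by 0.28 (standard error 0.058, limma adjusted p = 0.033), 1 of 10 genes against 1.15% of all genes called above and 0.861% below it. That call was lost under normexp (0.17, adjusted p = 0.086 by limma), with the sample number as a replicate block (0.28, adjusted p = 0.051) and in 7 of the 12 fits without 1 array (without apical replicate 1 or 4, middle replicate 1, 2 or 4, or basal replicate 1 or 2), and without basal replicate 3 the number of genes called was 3.

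Other hair cell genes were also higher in the apex. Of 9 hair cell markers outside the 10 genes, all detected, 8 were called higher there and 0 lower, and their mean log2 signal was 1.04 higher in the apex than at the base (standard error 0.087), from 7.39 to 7.60 on the apical arrays and 6.20 to 6.62 on the basal arrays. Their summed signal ran from 2967 to 3182 on apical arrays, 2546 to 2862 on middle arrays and 2452 to 2609.9 on basal arrays. Most of this sum is *Myo6*, the marker not called, which averaged 1740 on apical and 1885 on basal arrays. The mean of these markers was therefore subtracted from every gene on each array, which compares a gene with the hair cell genes of the same sample. On this scale the apical excess of *Lhfpl5* was 0.58 (standard error 0.15, limma adjusted p = 0.0021). *Pcdh15* had 0.42 (standard error 0.095, limma adjusted p = 7.41e-04) and *Tmc1* 0.29 (standard error 0.12, limma adjusted p = 0.033). That put 3 of 10 genes above the marker mean, against 1% of all genes. This share is low by construction, because the subtraction lowers every gene by the same amount. With most genes called on this scale, the adjustment for multiple tests changes little, and limma's unadjusted p for *Tmc1* was 0.030. The standard errors come from the spread between arrays and leave out the spread between the 9 markers. The markers themselves spread widely between apex and base, from -0.11 for *Myo6* to 1.97 for *Grxcr1* and 1.99 for *Ptprq*, and the last 2 exceeded all 10 genes. Their median difference was 1.32, close to the 1.33 of *Tmc1*, and *Otof* at 1.38 also exceeded *Tmc1*. *Ush1c* differed by -0.01 (standard error 0.098, limma adjusted p = 0.93), with a 95% interval of -0.22 to 0.20. The other 6 genes were called below the marker mean, as were 92.5% of all genes, with *Ush1g* at -1.13 (standard error 0.12, limma adjusted p = 7.10e-07), *Tmc2* at -1.08 (standard error 0.11, limma adjusted p = 6.13e-07) and *Tmie* at -0.79 (standard error 0.11, limma adjusted p = 1.38e-05). *Cdh23* was at -0.56, and *Cib2* and *Myo7a* both at -0.26, with limma adjusted p = 8.35e-05, 0.048 and 0.011. Between apex and middle turn, *Pcdh15* alone of the 10 stayed above the marker mean, by 0.29 (limma adjusted p = 0.025, 1.05% of all genes), though *Ptprq* (0.87) and *Grxcr1* (0.57) had larger log2 differences than *Pcdh15* there, and between middle turn and base *Lhfpl5* alone, by 0.50 (limma adjusted p = 0.0062, 0.877% of all genes).

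**Figure D4:**
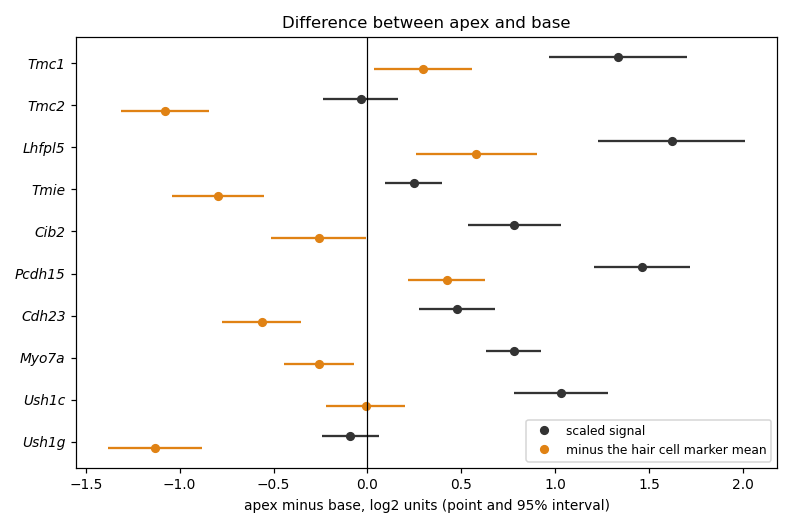
Log2 difference between apex and base with its 95% interval (horizontal axis) for each of the 10 genes, from the scaled signal (dark) and after the mean of 9 hair cell markers was subtracted on each array (orange). *Lhfpl5*, *Pcdh15* and *Tmc1* lie to the right of 0 on both scales. *Tmie*, *Cdh23*, *Cib2* and *Myo7a* cross from right to left, and *Ush1c* moves to -0.01 with an interval across 0. Of these, only *Tmie* and *Cdh23* were also below 0 with spike-in scaling.

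Markers of other cells moved along the same axis. All 6 outer hair cell markers were called higher in the apex than at the base, with a summed signal of 12851 to 17129.5 (apex) and 2729.6 to 5074 (base). So were 8 of 9 spiral ganglion neuron markers (27183 to 35583 and 5165 to 22658), with 1 lower, and all 5 markers of Schwann cells and glia on the array (12446 to 14026 and 6189 to 11924). Of 8 supporting cell markers, 4 were higher and 2 lower. All 4 fibrocyte markers of the spiral ligament (268005 to 291857 and 523583 to 587827), all 5 macrophage markers (1880 to 2345 and 2599 to 3343) and 3 of 5 marginal and 3 of 4 intermediate cell markers of the stria vascularis were lower in the apex. Of 4 bone markers, 1 was lower and 0 of 3 red blood cell markers were called. The part of these cell types in the differences of the 10 genes was not tested.

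Relatives and partners of the 10 genes did not move as one group. Of 35 such genes listed, 30 were on the array, and 10 of these were called higher in the apex, 7 lower and 13 neither, with a median log2 difference of -0.01, beside 17.6% higher and 21.6% lower of all genes. Among partners that carry or regulate the machinery, 5 of 8 were higher and 1 lower. *Tomt*, needed to bring TMC1 to the bundle, had 157 ± 17.4 on apical and 60.3 ± 16.5 on basal arrays (SD, n = 4 arrays), a log2 difference of 1.42 (standard error 0.19, limma adjusted p = 1.93e-04). *Atp2b2*, the calcium pump of the bundle, had 668 ± 49.8 on apical and 269 ± 106 on basal arrays, or 1.39 (standard error 0.24, limma adjusted p = 8.56e-04).

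Of the 6 other TMC genes, 1 was higher in the apex and 2 were lower. *Tmc7* had 58.8 ± 3.62 on apical and 92.9 ± 9.95 on basal arrays, a log2 difference of -0.66 (standard error 0.09, limma adjusted p = 2.17e-04), and *Tmc6* differed by -0.57 (standard error 0.069, limma adjusted p = 1.12e-04), both opposite to *Tmc1*. Of 5 relatives of *Lhfpl5*, 1 was higher and 1 lower. *Lhfpl3* had 1303 ± 214 on apical and 500.0 ± 333 on basal arrays, or 1.58 (standard error 0.39, limma adjusted p = 0.007), and *Lhfp* -0.79 (standard error 0.082, limma adjusted p = 3.57e-05). *Cib1*, the relative of *Cib2* on the array, had 1582 ± 103 on apical and 2264 ± 304 on basal arrays, or -0.51 (standard error 0.1, limma adjusted p = 0.0025).

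Among 5 genes of the ankle links and of the other types of Usher syndrome, 2 were higher in the apex and 1 lower. *Clrn1* had 116 ± 9.98 on apical and 43.8 ± 24.3 on basal arrays, a log2 difference of 1.59 (standard error 0.35, limma adjusted p = 0.0038). *Whrn*, the scaffold whirlin of the stereocilium tip and the ankle links, had 82.3 ± 6.83 on apical and 163 ± 15.3 on basal arrays, or -0.99 (standard error 0.1, limma adjusted p = 3.81e-05). In the intestinal brush border, relatives of the tip link complex link microvilli, and of 5 such genes 1 was higher and 1 lower. *Calml4*, a calmodulin-like protein, had 2484 ± 189 on apical and 1399 ± 133 on basal arrays, or 0.83 (standard error 0.077, limma adjusted p = 1.64e-05), and *Cdhr5*, a protocadherin of the microvilli, differed by -0.23 (standard error 0.081, limma adjusted p = 0.04) at a low signal.

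Across the 12 arrays, the genes called between apex and base moved together, with Pearson's r between 0.54 (*Tmie* and *Cib2*) and 0.99 (*Lhfpl5* and *Cib2*) for pairs of the 8. *Tmc2* had no r above 0.25 with any of the other 9, and *Ush1g* was between -0.27 and -0.73 with the 8. These values rest on 3 groups of arrays, so the difference between turns makes up much of them. Basal replicate 2 was the lowest of the 4 basal arrays in 9 of the 10 genes, and without it the same number of genes, 8, was called higher in the apex than at the base, with *Lhfpl5* at 1.43 and *Ush1c* at 0.94, under 2-fold. The 5 genes outside the group with the profile most like the mean of the 10, out of 16504 detected genes, were *Ocm* (r = 0.995 over 12 arrays), *Otof* (0.994), *Slc26a5* (0.994), *Strc* (0.988) and *Kcna10* (0.987), and 676 genes had r above 0.9. *Slc26a5*, the outer hair cell motor prestin, averaged 347 on apical, 211 on middle and 46.5 on basal arrays, and *Ocm*, the outer hair cell calcium buffer oncomodulin, 13958, 9641 and 3775.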

How the data were processed

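Gene expression was measured on 12 one-color Agilent mouse exon arrays, 4 per cochlear turn, grouped by their labels. The deposited values were fluorescence intensity per spot, made by the authors with Agilent Feature Extraction 10.7.3.1, with background subtracted within each array and no normalization between arrays. Software flags for spot quality and background, as deposited by the authors, were used as given. The deposited value table was identical to the processed signal. Probe positions were on mm9 (NCBI37), and exons or UTRs could not be assigned because no annotation of that build was used here.

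Control spots (7914 of 180880 per array) and 622 flagged spots were left out. Arrays were scaled to a common 75th percentile (target 641), following the methods of the study, repeated spots were averaged, and log2 values of the probes of a gene name were averaged, with no pseudocount. Genes, single probes and probes against the rest of their gene (3 or more probes) were tested with limma 3.58.1 in R 4.3.3 on the 12 arrays together, adjusted by Benjamini-Hochberg over all features. Signal over background and 4 arrays per turn limit the precision. The code was tested on simulated data.

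The members, gene lists and tests were chosen with earlier results of these data known. Named genes were all members, the 2 genes of each pathway list with the largest difference between apex and base, and the 5 genes most like the members' mean profile. Alternatives were other scalings, normexp background correction, other probe summaries, a pseudocount of 16, arrays left out, a replicate block, an unmoderated ANOVA contrast and subtraction of the hair cell markers.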

Additional observations from a re-analysis of the deposited data

Results flagged for a closer look

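Apical replicate 4 was far below the other 3 apical arrays for *Tmc1*, at 6.13 in log2 units (a signal of 69.9), with a gap of 0.944 of the range of the 4 arrays. This was 1 of 30 groups of 4 arrays examined, and chance alone marks about 1 group in 20.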

How the results depend on the processing

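With the other scalings and probe summaries, the number of the 10 genes called higher in the apex than at the base stayed within 1.5 times of 8, except after subtraction of the hair cell markers. The number called lower, 0 in the main processing, was 1 with median scaling, the median of the probes or the mean linear signal, and 2 with spike-in scaling. Differences of 2-fold or more between apex and base numbered 1 with spike-in scaling, 1 with normexp and 2 with a pseudocount of 16, against 4, and leaving out 1 array gave 3 to 4. Between middle turn and base that number was 2 with the median of the probes, which also gave 1 gene called lower there, and 1 to 2 with 1 array left out. Genes called higher in the apex than in the middle turn numbered 1 with normexp, the median of the probes, the mean linear signal or the unmoderated contrast, 4 with only the 8 arrays compared, 0 with spike-in scaling (and 2 lower, *Tmc2* and *Ush1g*), and 1 to 3 with 1 array left out. Genes called off the midpoint numbered 0 with normexp and 0 to 3 with 1 array left out. Probes above the rest of their gene numbered 27 with normexp, where the share of all probes was not determined, and probe 6 of *Myo7a* went to -0.12 there. The causes were not tested.

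Some differences changed sign, and of those listed here only *Tmie* and *Cdh23* between apex and base were called in the main processing. Between apex and middle turn, *Cdh23* went to -0.017 with quantile normalization, -0.0019 with median scaling, -0.058 with normexp and -0.018 with the mean linear signal, and *Myo7a* to -5e-04 with the median of the probes. Between middle turn and base, *Tmc2* went to -0.033 with quantile normalization, -0.073 with the mean linear signal and -0.029 with only probes well above background. Spike-in scaling turned *Tmie* (-0.24) and *Cdh23* (-0.010) between apex and base, *Tmie* (-0.10), *Cib2* (-0.14), *Cdh23* (-0.16) and *Myo7a* (-0.11) between apex and middle turn, and *Tmc2* (-0.10) and *Tmie* (-0.14) between middle turn and base, where *Ush1g* was called lower (-0.34). With 1 array left out, the lowest and highest values were -0.11 and 0.0053 for *Tmc2* between apex and base, and -0.0038 and 0.12 for *Cdh23* and -0.065 and 0.018 for *Ush1g* between apex and middle turn.

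Subtraction of the hair cell markers, by construction, lowers the difference of every gene by the same amount. It gave 3 genes higher and 6 lower between apex and base, with *Tmie* at -0.79, *Cib2* at -0.26, *Cdh23* at -0.56, *Myo7a* at -0.26 and *Ush1c* at -0.0086. Between apex and middle turn it gave 1 higher and 1 lower, with *Tmie* at -0.15, *Cib2* at -0.18, *Cdh23* at -0.21 and *Myo7a* at -0.15. Between middle turn and base it gave 1 higher and 4 lower, with *Tmc2* at -0.61, *Tmie* at -0.65, *Cib2* at -0.075, *Cdh23* at -0.36, *Myo7a* at -0.11 and *Ush1c* at -0.16. Between apex and base, 92.5% of all genes were called lower on this scale. That share was not determined for the comparisons with the middle turn, so the lower counts there cannot be read as particular to these genes.

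The turns came from the same 4 mice, but no source used here says that a sample number marks a mouse, and deviations of same-numbered arrays correlated above 0.1 in 6 of 12 pairs (mean r 0.095), with 8 of 12 arrays closest to their own number. With the sample number as a replicate block, the counts of genes were 8, 2 and 7 in the 3 comparisons, as without it, 135 probes were called higher in the apex, and 0 genes were called off the midpoint (*Myo7a*, 0.28, limma adjusted p = 0.051).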
